A study of Mus musculus with 6 samples.

Results

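Haemoglobin and platelet transcripts were followed in bulk RNA-seq of naive CD8 T cells, as the 7 genes Hba-a1, Hba-a2, Hbb-bs, Hbb-bt, Alas2, Pf4 and Ppbp among 55450 genes in the count table. They were chosen by gene symbol, as transcripts that belong to red blood cells and platelets and not to T cells. The samples were 3 CD103KO libraries, from Itgae-/- mice, and 3 WT libraries, from C57BL/6 mice. Itgae encodes CD103, an integrin chain. In both groups the cells came from lymph nodes and had been sorted as CD8 T cells negative for Ly6C and CXCR3, surface proteins found on memory-like CD8 T cells. The labels give no age, no sex, no background strain for the knockout and no word on whether each library is a separate animal. The p-values therefore rest on the spread among these libraries, which may be in part technical. WT replicates 1 and 2 had 5012 and 7628 counts of Xist, the RNA of the inactive X chromosome. WT replicate 3 had 1 such count and had Y-linked reads instead, so it was not a technical repeat of them.

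Haemoglobin, the oxygen carrier of red blood cells, is built from alpha and beta chains, each holding a haem group. Mice carry the adult alpha chain on a pair of neighbouring genes, Hba-a1 and Hba-a2, and the adult beta chain on another such pair, which in C57BL/6 mice are Hbb-bs and Hbb-bt. Globin mRNA is made in great excess over other mRNA by erythroid precursors and persists in reticulocytes, the youngest red cells in blood. Alas2 is the erythroid form of 5-aminolevulinate synthase, which catalyses the step that begins haem synthesis. Pf4 and Ppbp encode chemokines that megakaryocytes load into the alpha granules of platelets.

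The sequences below show why counts of each globin pair are hard to part. In GENCODE M21 on GRCm38 the coding sequences of Hba-a1 and Hba-a2 are each 429 bases and 142 codons long and differ at 1 base, C381T (Hba-a1 first, positions counted from 1 at the A of the start codon), an identity of 99.8%. Those of Hbb-bs and Hbb-bt are each 444 bases and 147 codons long and also differ at 1 base, C417T (Hbb-bs first). Both differences lie in exon 3 of 3. The lines give the coding sense around them, with the differing base in capitals.
Hba-a1, chr11:32284313-32284373, plus strand: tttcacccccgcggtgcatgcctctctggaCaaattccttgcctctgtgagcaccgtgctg
Hba-a2, chr11:32297130-32297190, plus strand: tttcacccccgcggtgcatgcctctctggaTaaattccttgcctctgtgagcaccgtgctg
Hbb-bs, chr7:103826665-103826722, minus strand: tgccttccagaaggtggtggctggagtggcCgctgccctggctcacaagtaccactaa
Hbb-bt, chr7:103812656-103812713, minus strand: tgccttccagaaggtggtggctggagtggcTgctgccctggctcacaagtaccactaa
Of all 50-base windows of the Hba-a1 transcript, 67.5% also occur in that of Hba-a2, and 86.9% the other way round. For the beta pair the shares were 65.8% of Hbb-bs windows in Hbb-bt and 58.3% of Hbb-bt windows in Hbb-bs. A read inside such a window cannot be placed on 1 gene by its sequence. The deposited values show such sharing: in CD103KO replicate 1, Hba-a1 had 1113.44 and Hba-a2 2597.56 expected counts, neither whole, and their sum was 3711. All 12 sums of a pair in a library were whole within 0.01. The split within a pair is therefore an estimate, and the sum of a pair is the firmer value.

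The genes of a pair are near neighbours. Hba-a1 (ENSMUSG00000069919.7, chr11:32283511-32284465, plus strand) and Hba-a2 (ENSMUSG00000069917.7, chr11:32296489-32297298, plus strand) lie 12023 bases apart, and Hbb-bs (ENSMUSG00000052305.6, chr7:103826534-103828096, minus strand) and Hbb-bt (ENSMUSG00000073940.3, chr7:103812524-103813996, minus strand) lie 12537 bases apart. Alas2 (ENSMUSG00000025270.13) is at chrX:150547375-150570638 on the plus strand. Ppbp (chr5:90768518-90770063) and Pf4 (chr5:90772435-90773383) share the plus strand, 2371 bases apart. All 7 are protein-coding.

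The alpha and beta genes are on different chromosomes but carry some of the same short promoter words. Whether these words bear on the like profiles of the 4 genes over the libraries was not tested. Promoters were taken from RefSeq (GRCm38.p6), which held all 7 members. The lines give 120 bases before the RefSeq start, with 3 common promoter words in capitals.
Hba-a2, chr11:32296372-32296491, plus strand: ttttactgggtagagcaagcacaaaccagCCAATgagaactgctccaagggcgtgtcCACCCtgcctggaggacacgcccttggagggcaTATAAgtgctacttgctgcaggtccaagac
Hbb-bs, chr7:103827929-103828048, minus strand: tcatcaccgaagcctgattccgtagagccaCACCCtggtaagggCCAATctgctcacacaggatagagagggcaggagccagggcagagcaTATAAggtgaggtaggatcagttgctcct
The 3 words, read on both strands over 250 bases before the start, were each found in all 4 globin promoters. They were not limited to globin genes: TATAA was also in the promoters of Alas2 and Ppbp, CACCC in that of Alas2 and CCAAT in that of Pf4. The CCAAT word was in 33.8% of 32851 promoters of the same length. The word TATAA, the core of the TATA box, was in 22.8%. The word CACCC, which factors such as KLF1 bind, was in 52.0%. A word of the kind that GATA factors bind, spelled AGATAA or with T as its starting letter, was in the promoters of Hba-a1, Hba-a2, Hbb-bs and Alas2 and in 16.6% of all promoters. The promoters of Hba-a1 and Hba-a2 were 100% identical over 247 bases once shifted by 3 bases. For Hbb-bs and Hbb-bt the value was 34.7%, but it was not taken with their CCAAT and TATAA words lined up. It therefore does not show how alike the beta promoters are and cannot be set against that of the alpha pair. CACCC and CCAAT can share letters where they meet, but no matches overlap in the stretches shown, and a match describes the sequence only.

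Haemoglobin mRNA was present in all 6 libraries, at 0.00328% to 0.00922% of all counts. It was higher in each CD103KO library than in any WT library, by about 2.02-fold in the mean. Platelet chemokine mRNA was at or next to 0 everywhere. The name "platelet transcripts" therefore has nearly no reads behind it in these samples. None of the 7 genes passed the test over all genes with edgeR, although 3 of the globin genes did with DESeq2. Levels are given as CPM, counts relative to a library size scaled by TMM, and fold changes as the log2 of CD103KO over WT with a standard error (SE). A gene passed when its Benjamini-Hochberg adjusted p over the 13470 genes tested was below 0.05. Total counts were 68292475 to 94347034 per library.

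**Figure D1:**
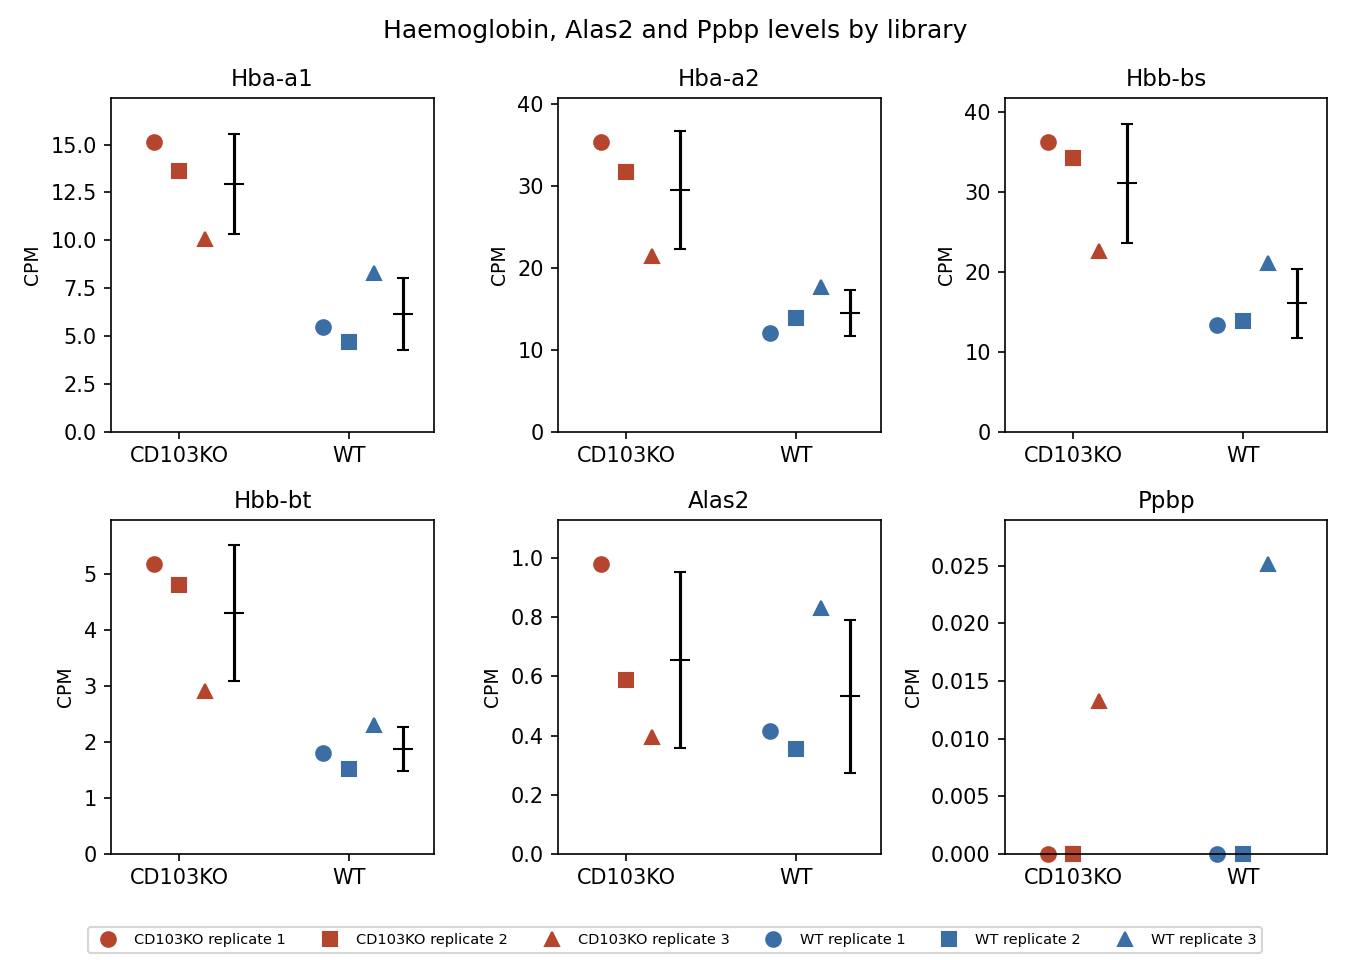
CPM of 6 members in each library (points, 1 shape per replicate number, CD103KO left and WT right), with the mean and SD of 3 libraries as black bars, except for Ppbp. The 4 globin genes do not overlap between groups and share the order of CD103KO replicates 1, 2 and 3, whereas Alas2 overlaps. Ppbp has reads in 1 library of each group and Pf4, with 0 counts everywhere, is not drawn.

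The chain genes of alpha globin came out alike. Hba-a2, the more abundant of the pair in these counts, had 35.4, 31.6 and 21.5 CPM in CD103KO replicates 1, 2 and 3, against 12.03, 13.9 and 17.6 CPM in WT replicates 1, 2 and 3. The groups did not overlap, with the gap narrowest between CD103KO replicate 3 and WT replicate 3. Its means were 29.5 ± 7.20 CPM in CD103KO and 14.5 ± 2.83 CPM in WT (SD, n = 3 each), a log2 difference of 1.02 (SE 0.19) that missed the threshold in edgeR's quasi-likelihood test (adjusted p = 0.123) and passed with DESeq2 (adjusted p = 0.0114). Hba-a1 had 15.2, 13.6 and 10.1 CPM in CD103KO replicates 1, 2 and 3, against 5.45, 4.70 and 8.29 CPM in WT replicates 1, 2 and 3. Here too every CD103KO library lay above every WT library, and WT replicate 3 was the highest of its group. The means of Hba-a1 were 12.95 ± 2.61 CPM in CD103KO and 6.15 ± 1.89 CPM in WT (SD, n = 3 each), and the log2 fold change was 1.08 (SE 0.22; adjusted p = 0.150 with edgeR's quasi-likelihood test and 0.0427 with DESeq2). Summed to 1 feature before the fit, the alpha pair stood at 1.04 on the log2 scale (SE 0.19), short of passing with edgeR (adjusted p = 0.120) and passed with DESeq2 (adjusted p = 0.0132).

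The beta chain genes were likewise highest in CD103KO replicate 1 and, within WT, in replicate 3. Hbb-bs had 36.3, 34.2 and 22.6 CPM in CD103KO replicates 1, 2 and 3, against 13.3, 13.8 and 21.03 CPM in WT replicates 1, 2 and 3. CD103KO replicate 3 and WT replicate 3 were only just apart, and the other 4 libraries lay far from them in opposite directions. Its means were 31.02 ± 7.39 CPM in CD103KO and 16.0 ± 4.34 CPM in WT (SD, n = 3 each), a log2 difference of 0.95 (SE 0.21) that passed neither with edgeR (adjusted p = 0.205) nor with DESeq2 (adjusted p = 0.103). Hbb-bt, the least abundant of the 4, had 5.18, 4.80 and 2.91 CPM in CD103KO replicates 1, 2 and 3, against 1.80, 1.51 and 2.30 CPM in WT replicates 1, 2 and 3. The groups did not overlap for this gene either. Its means were 4.30 ± 1.21 CPM in CD103KO and 1.87 ± 0.398 CPM in WT (SD, n = 3 each), and the log2 fold change, 1.20 (SE 0.23), fell short with edgeR (adjusted p = 0.145) and passed with DESeq2 (adjusted p = 0.000113). As 1 feature the beta pair stood at 0.98 (SE 0.21), with an adjusted p of 0.187 in edgeR and 0.0832 in DESeq2.

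Counted over the members, 0 of the 5 that could be tested passed with edgeR, where 0.223% of all tested genes passed in either direction. At an unadjusted p under 0.05, edgeR gave 4 of the 5 as higher in CD103KO, the 4 globin genes, against 4.53% of all tested genes. The same 4 had groups that did not overlap and were higher in CD103KO, as did 6.82% of all tested genes. DESeq2 called 3 of the 5, against 0.661% of its genes called as higher. The 4 globin genes form 2 near-identical pairs, so they are fewer than 4 separate measurements. The median log2 fold change of the 5 tested members was 1.02, and that of all tested genes was -0.00253.

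Summed, the 4 globin genes reached 92.0, 84.3 and 57.0 CPM in CD103KO replicates 1, 2 and 3, against 32.6, 33.9 and 49.2 CPM in WT replicates 1, 2 and 3. These sums rest on 6754, 5742 and 4310 counts in the CD103KO libraries, against 2439, 3245 and 3912 counts in the WT libraries. In each library they were below 0.01% of all counts, from 0.00567% to 0.00922% in CD103KO and from 0.00328% to 0.00484% in WT. The means were 77.8 ± 18.4 CPM in CD103KO and 38.6 ± 9.25 CPM in WT (SD, n = 3 each), a ratio of 2.02 with an exact two-sided permutation p of 0.1, the smallest that 3 against 3 libraries can give. The alpha pair gave 42.4 ± 9.81 CPM in CD103KO and 20.7 ± 4.56 CPM in WT (SD, n = 3 each), a ratio of 2.06, and the beta pair 35.3 ± 8.61 CPM in CD103KO and 17.9 ± 4.70 CPM in WT (SD, n = 3 each), a ratio of 1.97. In bulk samples fewer cells of a type and less RNA per cell cannot be told apart, so these levels count neither red cells nor RNA per red cell.

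The 4 globin genes kept nearly fixed proportions while their sum varied. Hba-a1 made up 30.004%, 30.1% and 31.9% of the alpha pair's counts in CD103KO replicates 1, 2 and 3, against 31.2%, 25.3% and 32.04% in WT replicates 1, 2 and 3. Hbb-bt made up 12.5%, 12.3% and 11.4% of the beta pair's counts in CD103KO replicates 1, 2 and 3, against 11.96%, 9.90% and 9.89% in WT replicates 1, 2 and 3. For both pairs the groups overlapped. Per base of transcript, alpha over beta was 1.31, 1.25 and 1.33 in CD103KO replicates 1, 2 and 3, against 1.24, 1.32 and 1.19 in WT replicates 1, 2 and 3, again with overlap.

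**Figure D2:**
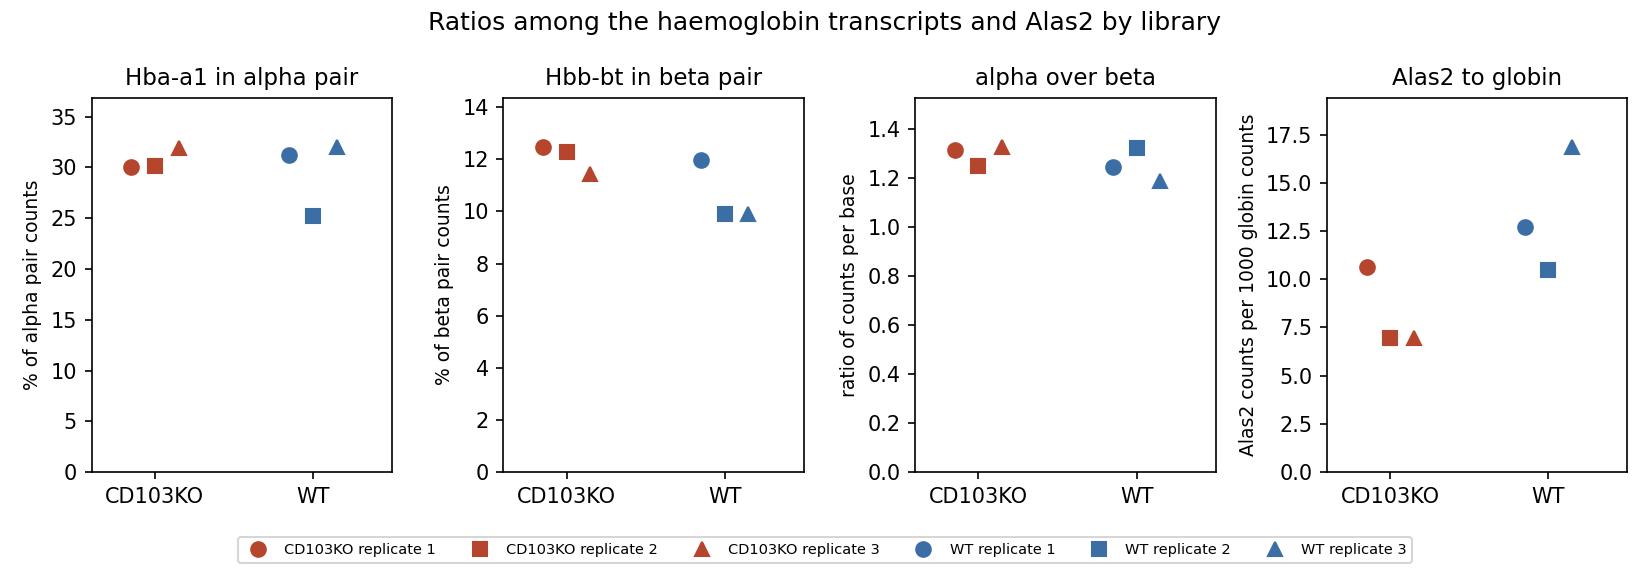
Ratios within each library (points, 1 shape per replicate number, CD103KO left and WT right): the share of Hba-a1 in the alpha pair and of Hbb-bt in the beta pair (%), alpha over beta counts per base of transcript, and Alas2 counts per 1000 counts of the 4 globin genes. The panels of globin ratios overlap between groups, and WT replicate 3 has the highest Alas2 ratio, 16.9.

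Alas2, the erythroid haem synthesis enzyme, had groups that overlapped. It had 72, 40 and 30 counts in CD103KO replicates 1, 2 and 3, against 31, 34 and 66 counts in WT replicates 1, 2 and 3. Each group had 1 library well above its other two. Exact Poisson intervals of 95%, which cover counting error only, ran from 56.3 to 90.7 counts around the 72 of CD103KO replicate 1 and from 51.0 to 84.0 around the 66 of WT replicate 3, and did not reach the 30 of CD103KO replicate 3 or the 31 of WT replicate 1. In CPM its means were 0.655 ± 0.298 in CD103KO and 0.533 ± 0.259 in WT (SD, n = 3 each), and the log2 fold change, 0.30 (SE 0.42), did not pass (adjusted p = 0.871, edgeR's quasi-likelihood test). For each 1000 counts of the 4 globin genes, Alas2 had 10.7, 6.97 and 6.96 counts in CD103KO replicates 1, 2 and 3, against 12.7, 10.5 and 16.9 counts in WT replicates 1, 2 and 3. Only CD103KO replicate 1 and WT replicate 2 crossed in that ratio.

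Per length, where genes can be compared, the haemoglobin transcripts ranged from abundant to low. Hba-a2 had 53.2 CPM per kb of transcript in CD103KO and 26.2 in WT, the percentiles 89.9 and 79.1 among 11268 tested coding genes. Hbb-bs stood beside it with 49.4 CPM per kb in CD103KO and 25.5 in WT. Hba-a1 had 18.5 CPM per kb in CD103KO and 8.79 in WT, and Hbb-bt had 6.11 in CD103KO and 2.66 in WT. Alas2 was far below them with 0.322 CPM per kb in CD103KO and 0.262 in WT, the percentiles 11.3 and 10.2. For scale, Cd8a, which marks the sorted cells, had 473 CPM per kb in CD103KO and 464 in WT. The order of the 5 genes was the same in both groups, though Hba-a2 and Hbb-bs did not differ beyond their spread.

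The platelet chemokines could not be compared. Pf4 had 0 counts in all 6 libraries. The exact 95% Poisson interval around a count of 0 reaches 3.69 counts. As a rough floor, 3 counts would be 0.0313 to 0.0440 CPM depending on the library. Ppbp had 0, 0 and 1 counts in CD103KO replicates 1, 2 and 3, against 0, 0 and 2 counts in WT replicates 1, 2 and 3. The ratio of CD103KO over WT was 0.576 with a 95% counting interval of 0.00976 to 11.1. For the sum of Pf4 and Ppbp the exact two-sided permutation p was 1.0. Their neighbours on chromosome 5, Cxcl1, Cxcl2, Cxcl3, Cxcl5 and Cxcl15, chemokines that draw neutrophils, had 0 counts throughout. Cxcr3, which encodes the chemokine receptor used in the sort and reported in humans to bind the Pf4 protein, was at 6.89 ± 1.71 CPM in CD103KO and 4.71 ± 2.55 CPM in WT (SD, n = 3 each; log2 fold change 0.55, adjusted p = 0.683, edgeR).

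Other genes of red cells and platelets were spread on both sides of 0. Outside the members, 54 genes of an erythroid and a platelet list were in the table and 13 had enough counts to be tested. Of these 13, 5 had positive and 8 negative log2 fold changes, with a median of -0.04 and a range of -0.57 to 0.65. Neither edgeR nor DESeq2 called any (0 of 13 each). Of the 13, edgeR put 2 at an unadjusted p under 0.05, both higher, against 4.53% of all tested genes as higher. Groups did not overlap for 2 as higher and 2 as lower, against 918 and 992 of all 13470 tested genes.

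**Figure D3:**
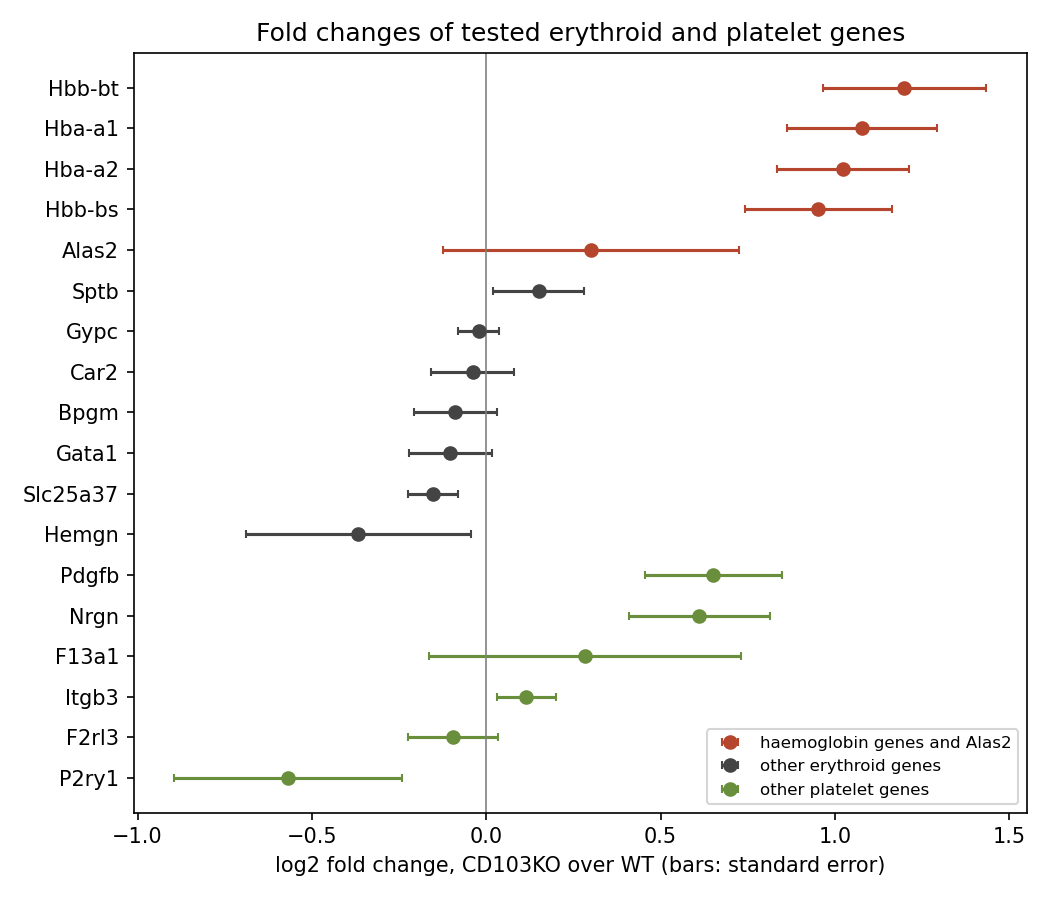
Log2 fold changes of CD103KO over WT (x axis, bars show the SE) for the 5 tested members in red, 7 other tested erythroid genes in dark grey and 6 tested platelet genes in green. The 4 globin genes sit near 1, and the other genes lie between -0.57 and 0.65.

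Whether reads of the listed erythroid genes came from red cells or from other cells was not tested. Slc25a37, which carries iron into mitochondria, was at 13.2 ± 0.786 CPM in CD103KO and 14.6 ± 0.792 CPM in WT (SD, n = 3 each; log2 fold change -0.15, adjusted p = 0.594, edgeR). Sptb, the beta spectrin of the red cell membrane skeleton, stood at a log2 fold change of 0.15 (adjusted p = 0.776), and Hemgn, a nuclear protein of erythroid cells, at -0.37 (adjusted p = 0.777, both edgeR). Counts of genes that define red cell precursors ranged widely. Over all 6 libraries Gata1, the master factor of red cells and megakaryocytes, had 1242, Sptb 1026 and Hemgn 261. Klf1, the erythroid transcription factor that switches on adult beta globin, had 16. Slc4a1, the anion exchanger of the red cell membrane, had 6, 1 and 5 counts in CD103KO replicates 1, 2 and 3, against 3, 1 and 0 in WT replicates 1, 2 and 3. Of the 29 listed erythroid genes in the table, 13 had at most 10 counts in all, and Aqp1, Epb42, Gfi1b, Car1, Add2 and Trim58 had 0.

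More of the platelet list was at or near 0, though not all of it. Of 28 in the table, 18 had at most 10 counts over the 6 libraries, and 10 had 0, among them Tubb1, the platelet tubulin, Gp9, Gp1bb and Gp6, which encode platelet surface glycoproteins, Treml1, Gng11, Cavin2, Mmrn1 and Pf4. Pdgfb, a growth factor of platelets and other cells, was at 2.43 ± 0.306 CPM in CD103KO and 1.55 ± 0.382 CPM in WT (SD, n = 3 each; log2 fold change 0.65, unadjusted p = 0.00918, adjusted p = 0.432, edgeR). Nrgn, a calmodulin-binding protein gene, was at 1.40 ± 0.186 CPM in CD103KO and 0.917 ± 0.144 CPM in WT (SD, n = 3 each; log2 fold change 0.61, unadjusted p = 0.0146, adjusted p = 0.445, edgeR). P2ry1, an ADP receptor, was lower in CD103KO at -0.57 on the log2 scale without passing (adjusted p = 0.672, edgeR). The median of the 6 tested platelet genes was 0.20. The whole list summed to 38.4 to 44.8 CPM in CD103KO and 36.7 to 40.2 CPM in WT. Most of that sum came from Itgb3, with means of 28.5 CPM in CD103KO and 26.4 CPM in WT, and F2rl3, with 8.42 and 8.99 CPM. Which cells these reads came from was not tested.

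Other globins gave almost no reads. Of 11 embryonic, theta, muscle, brain and widely expressed globin genes, 7 had 0 counts and the other 4 had at most 7 counts over the 6 libraries, that highest count belonging to Cygb, cytoglobin. Among them the embryonic chains Hba-x and Hbb-y were at 0, so the haemoglobin reads were of the adult type.

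Genes that make, handle or regulate haem and globin did not pass. All 9 haem synthesis enzymes, Alas2 among them, were tested, and 0 passed with edgeR or DESeq2, with a median log2 fold change of 0.05. Alas1, the synthase that other tissues use, was at 25.7 ± 0.823 CPM in CD103KO and 28.7 ± 0.551 CPM in WT (SD, n = 3 each; log2 fold change -0.16, adjusted p = 0.464, edgeR), the 1 enzyme with an unadjusted p under 0.05. Log2 fold changes were -0.16 for Alad, which catalyses the next step (adjusted p = 0.598), and 0.10 for Cpox, a later enzyme (adjusted p = 0.757, both edgeR). Of 17 genes for handling of haem and haemoglobin, 10 were tested and 0 passed with either tool (0 at an unadjusted p under 0.05 in edgeR), with a median of -0.03. Those of smallest p were Blvrb, a biliverdin reductase (-0.30), Fth1, ferritin heavy chain (-0.09), and Slc48a1, a haem transporter (-0.18). Hp, which encodes haptoglobin, the plasma protein that binds free haemoglobin, had 0 counts, and Cd163, the macrophage receptor for that complex, had 33.

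Of 12 regulators of globin genes, 8 were tested and 0 passed with edgeR or DESeq2, with a median log2 fold change of 0.05. Bcl11a, a repressor of fetal-type globin genes that B cells also use, was at 0.297 ± 0.0830 CPM in CD103KO and 0.0693 ± 0.0150 CPM in WT (SD, n = 3 each; log2 fold change 2.10, unadjusted p = 0.000703, adjusted p = 0.145, edgeR). Nfe2l1, a factor of the NF-E2 family, stood at 0.12 (adjusted p = 0.506), and Zfpm1, which encodes the GATA1 partner FOG1, at 0.10 (adjusted p = 0.698, both edgeR). Gata1 itself stood at -0.10 (adjusted p = 0.831, edgeR).

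The alpha pair lies on chromosome 11, as Itgae does, 40.8 Mb from it. The 6 other tested genes within 0.25 Mb of the pair had log2 fold changes from -0.11 for Il9r, a cytokine receptor, to 0.30 for Efcab9 (SE 0.46). Nprl3, whose introns hold the main alpha globin enhancers, was at -0.06 (adjusted p = 0.901, edgeR), Mpg, a DNA repair glycosylase, at -0.03 and Snrnp25, a spliceosome component, at -0.04. From 30 to 35 Mb of the chromosome, 3 of 27 tested genes had an unadjusted p under 0.01, namely Hba-a1, Hba-a2 and Stk10, a lymphocyte kinase (log2 fold change 0.14, adjusted p = 0.395, edgeR). That was 11.1% of the stretch with the alpha pair and 4% of 25 genes without it, against 1.99% of genes on other chromosomes. Of 48 other genes in the table within 0.25 Mb of the beta pair, 0 were tested and 45 had 0 counts, so the beta genes had no measured neighbour.

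**Figure D4:**
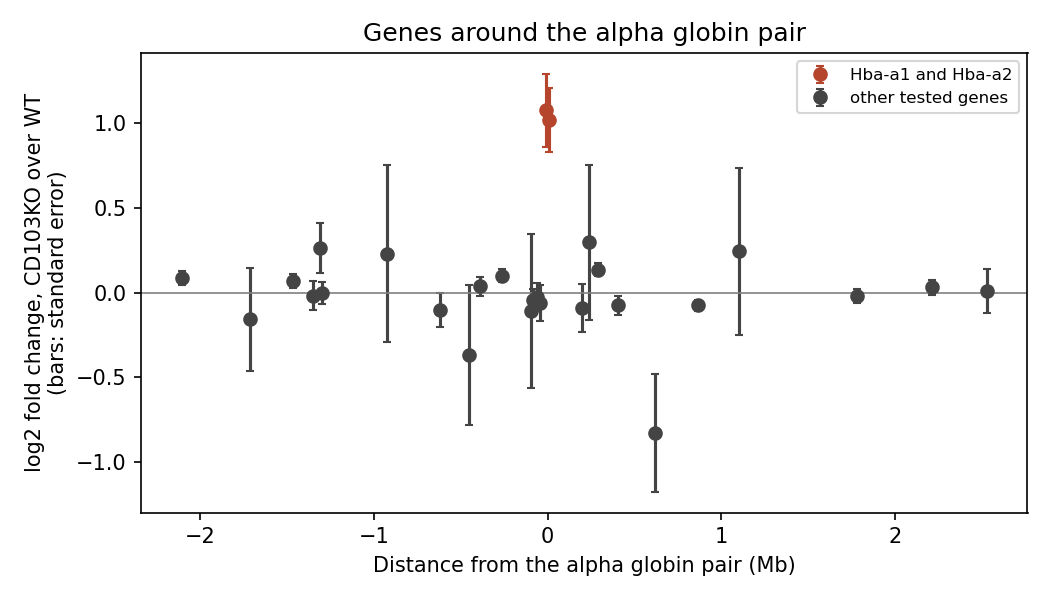
Log2 fold changes of CD103KO over WT (y axis, bars show the SE) for the 27 tested genes from 30 to 35 Mb of chromosome 11, by distance from the alpha globin pair in Mb. Hba-a1 and Hba-a2, in red, stand at 1.08 and 1.02, and the nearest genes on both sides lie close to 0.

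The size of the globin difference varied with the libraries used. The log2 ratio of the summed globin level was 1.01 with all 6 libraries. It ran from 0.87 without CD103KO replicate 1 to 1.23 without WT replicate 3. WT replicates 1 and 2 had 5012 and 7628 counts of Xist, the RNA of the inactive X chromosome, and 0 of the Y-linked Ddx3y, whereas the 3 CD103KO libraries and WT replicate 3 had at most 2 of Xist and 3612 to 4466 of Ddx3y. A term for Xist reads leaves WT replicate 3 as the WT side, and log2 fold changes were then 0.75 for Hba-a2 (adjusted p = 0.597), 0.64 for Hba-a1 (adjusted p = 0.610), 0.56 for Hbb-bs (adjusted p = 0.655) and 0.90 for Hbb-bt (adjusted p = 0.634, all edgeR). Alas2 was at -0.34 there. The part of Xist state in the difference was not tested further. Only 1 WT library shared the Xist state of the 3 CD103KO libraries, so Xist state and group can hardly be told apart. Itgae, the targeted gene, was at 65.6 ± 3.90 CPM in CD103KO and 482 ± 19.3 CPM in WT (SD, n = 3 each; log2 fold change -2.88).

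Whether a globin gene passed turned on single libraries and on the test. Without CD103KO replicate 3, the lowest of its group for all 4 genes, Hba-a2 (1.20, adjusted p = 0.0294) and Hbb-bt (1.41, adjusted p = 0.0335) passed with edgeR, where 0.131% of tested genes passed as higher. Without WT replicate 3, Hba-a1 passed (1.35, adjusted p = 0.0239, edgeR), where 0.226% of tested genes did as higher. With no filter on low counts all 4 passed with edgeR at log2 fold changes of 0.95 to 1.20, against 0.317% of genes as higher. Leaving out another library gave 0 members called. Over 16 alternative settings the log2 fold change ran from 0.64 to 1.35 for Hba-a1, 0.75 to 1.20 for Hba-a2, 0.56 to 1.19 for Hbb-bs and 0.90 to 1.41 for Hbb-bt. Since the groups do not overlap for these genes, its positive sign in each setting is no sign of stability. For Alas2, which a filter of 1 CPM in 3 libraries leaves out, it ran from -0.34 to 0.77 over the settings where it was tested and was negative in 3.

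**Figure D5:**
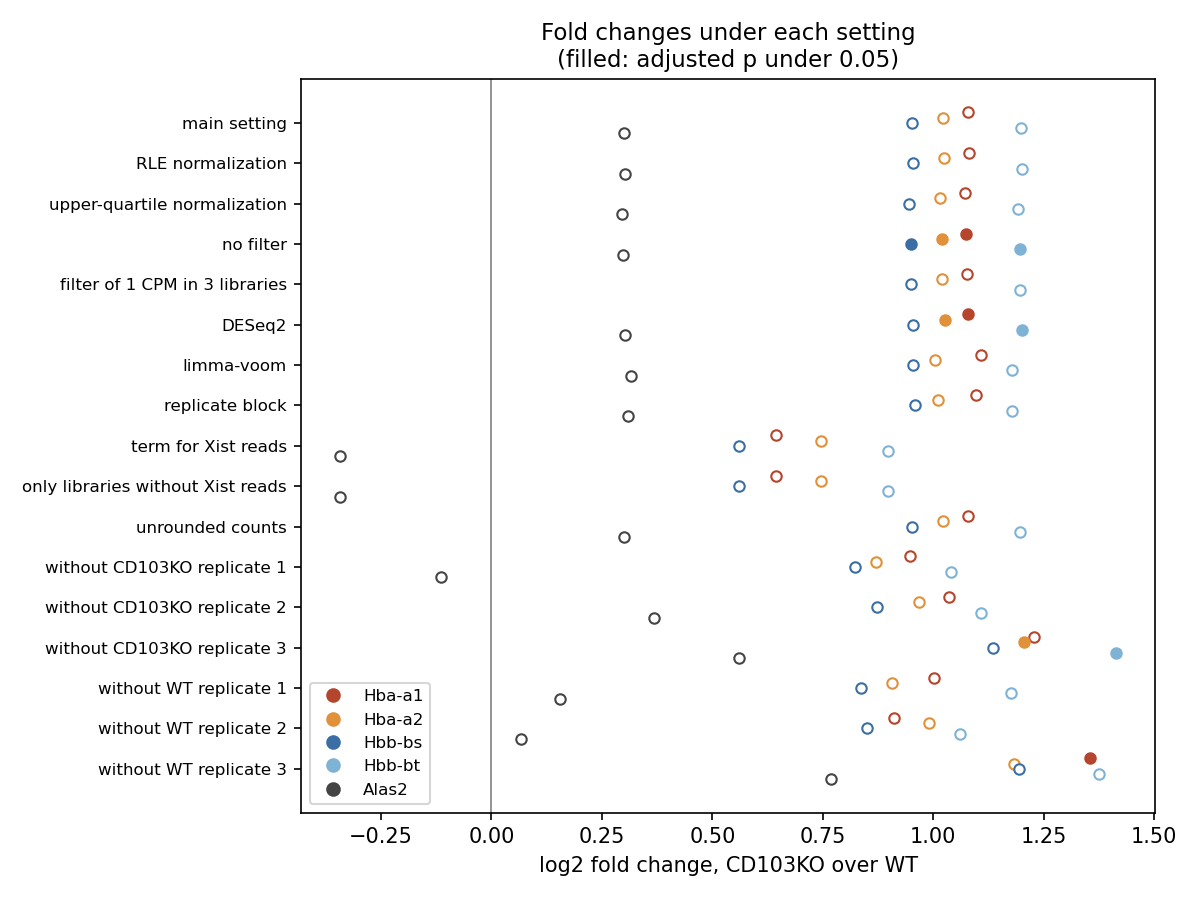
Log2 fold changes of CD103KO over WT (x axis) for 5 members under the reported setting (top) and 16 alternatives (y axis), with no Alas2 point for the filter of 1 CPM in 3 libraries. Filled points passed at an adjusted p of 0.05. The globin points lie between 0.56 and 1.41 and the Alas2 points between -0.34 and 0.77.

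Markers of other cells were set beside the globin values. Of 13 B cell genes, edgeR called 3 as higher in CD103KO, Fcer2a, Cd79a and Ms4a1, where it called 0.223% of all tested genes in either direction. DESeq2 called 8, against 0.661% of its genes as higher. All 13 log2 fold changes were above 0, with a median of 1.86, but those of Ighm and Cd79b, both at 0.01, were close to it (adjusted p = 0.980 and 0.978, edgeR). Their summed level was 484 to 509 CPM in CD103KO and 460 to 506 CPM in WT, most of it Ighm, and 0 of the 13 was at 0. Their order among CD103KO libraries was not that of globin. The mean centred log2 CPM of the list was 0.46, 0.53 and 1.00 in CD103KO replicates 1, 2 and 3, so replicate 3, lowest in globin, was highest in B cell genes, against -0.73, -0.75 and -0.52 in WT replicates 1, 2 and 3. The part of B cells in the globin values was not tested.

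No list of other blood and stromal cells held a gene that passed. The 12 neutrophil genes had summed levels of 0.0294 to 0.172 CPM in CD103KO and 0.0377 to 0.0534 CPM in WT, with 5 at 0, and 0 could be tested. Median log2 fold changes were -0.05 over 9 tested myeloid and dendritic cell genes, -0.11 over 8 NK cell genes, 0.15 over 5 CD4 T cell genes, -0.22 over 4 genes of lymph node stroma and endothelium and -0.15 over 4 progenitor genes. Of the mast cell and basophil list 1 gene was tested, Hdc, at 0.50. Neither edgeR nor DESeq2 called any gene of these lists (0 with each), and at an unadjusted p under 0.05 edgeR gave 1, Cdh5 of endothelium, at -0.91. The 13 CD8 T cell genes, which define the sorted cells, had a median of 0.01 and summed to 11082 to 11412 CPM in CD103KO and 11229 to 11390 CPM in WT.

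The genes outside the lists nearest to globin in profile over the libraries were farther from it than the 4 globin genes were from their own mean. Likeness was the root mean square difference of centred log2 CPM from the mean of the 4 globin genes over the 6 libraries, where 0 is an equal profile. The 4 genes themselves were at 0.0645 to 0.0952 and the median tested gene at 0.612. Each of the 4 is part of the mean it is measured against, and each pair shares reads. Their smaller distances were therefore partly fixed in advance. Closest among the others were Btk, a B cell kinase gene on the X chromosome (0.183), and the transcripts Gm5512 (0.213), Gm22513 (0.228), Gm15610 (0.239) and Gm26444 (0.240). Btk was at 0.204 CPM in CD103KO and 0.0944 CPM in WT on average, 1.11 on the log2 scale, and did not pass (adjusted p = 0.577, edgeR). Gm5512 and Gm15610 are annotated as pseudogenes and Gm22513 and Gm26444 as small nuclear RNA genes. These 5 were picked as the closest of all tested genes outside the lists, over only 6 libraries. Btk, Gm5512 and Gm15610 had at most 0.341 CPM in any library, where counting error is large. Whether these matches exceed those of a random profile was not tested. Alas2 stood at 0.462, Bcl11a at 0.510 and Cd79a at 0.507, values closer to the median distance of 0.612 than to those of the globin genes. A distance gives no direction: log2 fold changes were 0.30 for Alas2, 2.10 for Bcl11a and 1.74 for Cd79a. For Pf4 and Ppbp, which were not tested, no like gene can be named.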

How the data were processed

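RNA of lymph node CD8 T cells was sequenced with a stranded mRNA kit, per the labels' protocols. The authors deposited expected counts per gene, estimates that need not be whole (6.48% were not), made with bcl2fastq 2.20, cutadapt 1.18, STAR 2.7.0f and RSEM, with GRCm38 and mm10 named as builds, per the submitters' processing notes. Not given in the sources used here: RSEM's version, the annotation release, the strand setting and how multiply aligned reads were shared out. All 55450 gene identifiers matched GENCODE M21, which gave coordinates and transcripts. CPM and fold changes are those computed here.

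Expected counts were rounded and tested with edgeR 4.0.16 in R 4.3.3 (filterByExpr, minimum count 10; TMM; quasi-likelihood F test on group; Benjamini-Hochberg at 0.05), checked on simulated data. Sums were compared with exact permutation tests (SciPy 1.17.1). Per-length levels use the longest protein-coding GENCODE transcript. Members, lists and tests were chosen with earlier results of these data known. The text names all members, up to 3 genes of smallest p per list, other globins and chemokine genes of at least 0.1 CPM, Itgae, Xist and Ddx3y, and the 5 genes most like globin. Genes of neighbouring loci, those at 0 or few counts, Gata1, Itgb3, F2rl3 and Cd8a were named after their values were seen. Of the other cell lists some such genes are given by medians only. Counts over the lists include 2 genes whose own values are not reported here. Alternatives were RLE and upper-quartile factors, 2 filters, DESeq2 1.42.0, limma-voom (limma 3.58.1), a replicate block, an Xist term, unrounded counts, summed paralogs and each library left out. Summed paralogs with DESeq2 were added after seeing the data. Plots used matplotlib 3.10.9.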

Additional observations from a re-analysis of the deposited data

How the results depend on the processing

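With all 6 libraries and edgeR, 0 members passed, where 0.223% of all tested genes passed in either direction. The count was 4 with no filter on low counts and 3 with DESeq2, where 0.317% and 0.661% of all tested genes passed as higher. It was 0 to 2 when each library was left out in turn. It was 2 without CD103KO replicate 3 and 1 without WT replicate 3, where 0.131% and 0.226% of all tested genes passed as higher. With near-identical paralogs summed to 1 feature it was 0 with edgeR and 1, the alpha pair, with DESeq2, an alternative chosen after seeing the data. It was 0 with RLE or upper-quartile factors, a filter of 1 CPM in 3 libraries, limma-voom and unrounded counts. It was also 0 with the Xist term and among the libraries without Xist reads, but there the WT side is 1 library, assumed to vary like the others, and a count of 0 says little. With no filter 22386 genes were tested in place of 13470; why the globin genes pass there was not tested. Of single-gene values, 67 kept direction and side of the threshold, 10 came to pass and 3 reversed: Alas2 at -0.34 with the Xist term, at -0.34 among the libraries without Xist reads and at -0.12 without CD103KO replicate 1 (-0.12 to 0.77 when each library was left out). Of the erythroid and platelet genes outside the members, 0 passed in each of these settings, other than summed paralogs with DESeq2, where they were not counted.

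Replicate numbers did not pair the libraries: deviations of same-numbered libraries correlated at -0.20, -0.01 and -0.03. With the replicate number as a block 0 members passed with edgeR, and the summed globin level had an exact sign-flip p of 0.25, the smallest that 3 pairs can give. The log2 ratio of that sum was 1.01, and 0.87 to 1.23 when each library was left out. With 3 libraries a group an exact test of a sum cannot go below 0.1, and Ppbp and Pf4 have too few counts for any comparison. The log2 ratio of their sum could not be formed without CD103KO replicate 3 or without WT replicate 3, where a group is at 0.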
